A study of Mus musculus with 5 samples.

Results

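The genes described encode subunits of the ionotropic glutamate receptors: the AMPA receptor subunits Gria1, Gria2, Gria3 and Gria4, the kainate receptor subunits Grik1, Grik2, Grik3 and Grik5, and Grin1, the subunit that every NMDA receptor needs. They were chosen by name. Of the 10 genes listed, 9 matched a row of the count matrix by symbol, among 17267 rows that name a mouse gene, and Grin2b was not analysed here. Their transcripts were followed across the 14 cell types that the authors annotated in mouse lumbar dorsal root ganglia, the clusters of sensory neuron cell bodies beside the spinal cord.

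The cells came from adult wild-type C57BL/6 mice without treatment, so the series held 1 condition and every comparison is between cell types. Each cell was captured in a droplet and its transcripts were tagged at their 3′ ends with a unique molecular identifier (UMI). The 3352 cells comprised 3047 neurons of 12 types, 249 satellite glia and 56 endothelial cells. The neuron types fell into 3 NF types (neurofilament-rich, mostly large myelinated neurons), 3 NP types (non-peptidergic unmyelinated neurons), 5 PEP types (peptidergic neurons) and the type Th, named for tyrosine hydroxylase. The 5 library identifiers in the matrix could not be tied to single sample labels, so the libraries are numbered 1 to 5 and each was taken as 1 mouse.

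The libraries held between 164 and 1370 cells and between 13050375 and 88886919 UMIs. Of the 70 sums of 1 type in 1 library, 9 rested on fewer than 10 cells. The type NF2_Ntrk2.Necab2 held 3 of them, with 3, 6 and 5 cells in libraries 1 to 3. The summed level of 5 neuronal markers was 443 CPM (UMIs of a gene scaled to 1000000 UMIs of the sum) in satellite glia and 489 CPM in endothelial cells. It was at least 5480.4 CPM in every neuron type. Transcripts of these markers were thus counted in both non-neuronal types, and their source was not tested. The satellite glial markers summed to 95151 CPM in satellite glia, and the endothelial markers to 9022 CPM in endothelial cells. Endothelial cells also held 8295 CPM of the satellite glial markers (4221 to 18497 over libraries), against at most 593 CPM in a neuron type. In all, 7 cell barcodes occurred in more than 1 library, covering 14 cells.

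Ionotropic glutamate receptors are tetrameric cation channels that open when glutamate binds. AMPA receptors carry fast excitatory currents, and those that contain an edited Gria2 subunit pass little calcium. Kainate receptors are assembled from Grik1, Grik2 or Grik3, which can form channels alone, often together with a high-affinity subunit such as Grik5, which cannot. In dorsal root ganglion neurons such receptors are known from the cell body, the peripheral endings and the central terminals in the spinal cord, and the native kainate receptors of small unmyelinated neurons are known to contain Grik1.

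All levels below are UMI counts summed per type and library and divided by the total of that sum. They are not divided by transcript length, so they compare types for a gene and not genes with each other. Types were compared with edgeR's quasi-likelihood test on the 70 sums, with Benjamini-Hochberg adjustment over the 11886 genes that passed its filter on low counts. A gene was called where the adjusted p was under 0.01 and the difference at least 2-fold. The authors had drawn the types by clustering these same counts, so the tests describe how far apart the types lie and are not independent evidence. The p-values rest on the spread of the sums about their type means, pooled over the types. The fit had no library term, so it took the 70 sums as independent although each library gave a sum of every type. Deviations from the type mean had a median correlation of 0.118 between sums of the same library, against -0.0272 between libraries. The size of the p-values is therefore not read as the spread of 5 mice.

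The 9 receptor genes all passed the filter, and all 9 were called as differing among the 12 neuron types, where 79.4% of all genes tested were called. Each neuron type was also set against the mean of the other 11. Of the 108 pairs of receptor gene and type, 29 were called higher and 17 lower. Over all genes, 10.7% and 7.13% of such pairs were. This mean, like those of the class, glial and endothelial contrasts, averages log2 levels, so types near 0 pull it far down. A type called higher can thus lie below the mean CPM. Gria1 in NP_Mrgprd did (15.8 CPM, against 16.9 over the 12 neuron types), as did Grik1 in NF_Pvalb (38.9 against 76) and in NP_Mrgpra3 (34.4 against 76). The 108 pairs include some of Gria3 and Grik3 whose SE was too large for a reading. Among these was every neuron type without a UMI of the gene, so such types could not be called lower. They also enter the means for the other types, so fold changes of both genes depend on the prior count of the fit.

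**Figure D1:**
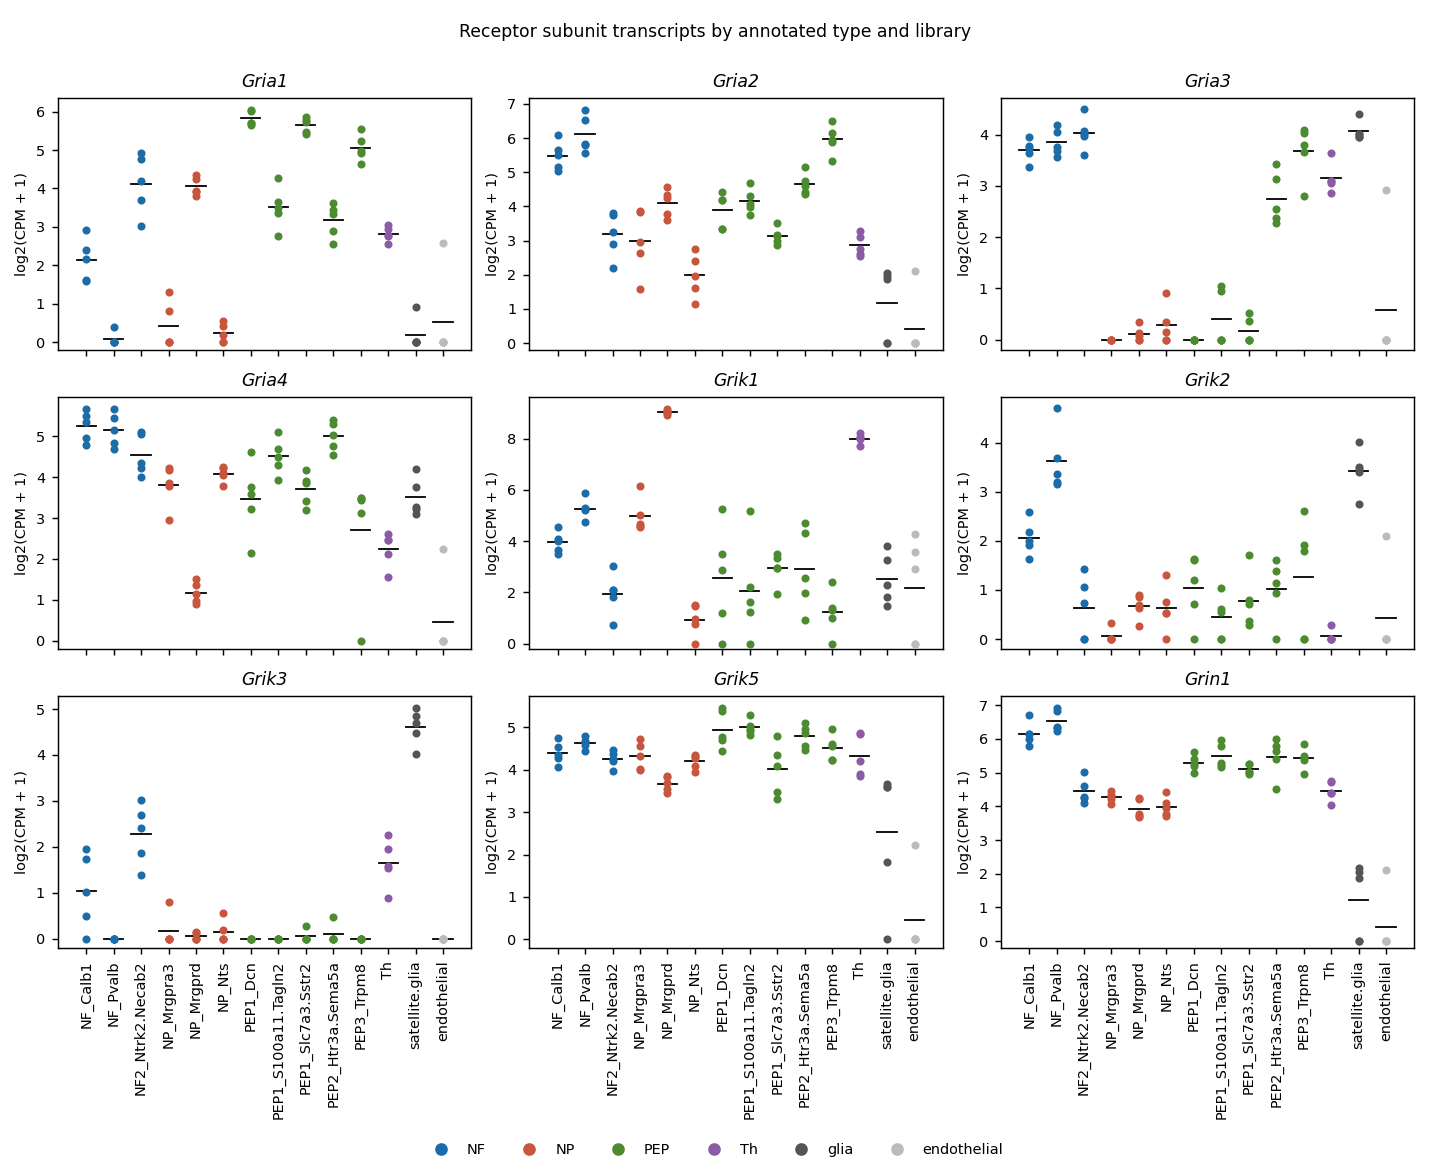
Level of each of the 9 receptor genes as log2(CPM + 1) on the vertical axis of its panel, for the 14 annotated types on the horizontal axis. Each point is 1 of 5 libraries, the black line is the mean of the 5 log2 values, and colours mark the classes. Grik1 stands highest in NP_Mrgprd and Th, Gria3 and Grik3 lie at or near 0 in the NP types, and Grik5 varies least among neurons.

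Gria1 (GluA1; chromosome 11, 57011387 to 57330244, plus strand, build GRCm38) was highest in 2 of the PEP1 types and nearly absent from several others. In PEP1_Dcn it measured 51.3, 50.9, 63.8, 65.4 and 49.5 CPM in libraries 1 to 5, a mean of 56.2 ± 7.72 (SD, n = 5). In PEP1_Slc7a3.Sstr2 it measured 41.8, 56.9, 54.4, 43.6 and 52 CPM, a mean of 49.7 ± 6.69. The libraries of these types overlapped. PEP3_Trpm8, the type marked by the cold receptor Trpm8, followed with 33.2 ± 8.23 CPM, then NF2_Ntrk2.Necab2 with 18.4 ± 9.37 and NP_Mrgprd with 15.8 ± 2.77. Against the mean of the other neuron types these 5 were called higher, with log2 fold changes of 3.54 (SE 0.15), 3.36 (SE 0.15), 2.71 (SE 0.19), 1.91 (SE 0.22) and 1.74 (SE 0.15). At the other end, Gria1 gave 1 UMI in the 113 NF_Pvalb neurons, the parvalbumin type to which proprioceptors belong, 5 UMIs in the 400 NP_Nts neurons and 5 in the 104 NP_Mrgpra3 neurons, and all 3 types were called lower. The calls of NP_Nts and NP_Mrgpra3 were lost without library 5 (log2 fold changes -4.98 and -3.88). Types of the same class differed in this gene. A Gria1 UMI was found in 82.8% of NF2_Ntrk2.Necab2 but 0.885% of NF_Pvalb cells, and in 84% of PEP1_Dcn but 30.9% of PEP1_S100a11.Tagln2 cells. With every cell thinned to 10000 UMIs these shares were 18.8%, 0.173%, 42.1% and 8.80%, and in endothelial cells, where little of the gene is expected, the thinned share was 1.25%.

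Gria2 (GluA2; chromosome 3, 80681450 to 80802835, minus strand) is the subunit whose edited form keeps AMPA receptors nearly impermeable to calcium. It was highest in NF_Pvalb, with 113, 90.9, 54.6, 46.1 and 55.7 CPM in libraries 1 to 5 (mean 72.1 ± 28.7, SD, n = 5). PEP3_Trpm8 held 90.1, 39.6, 70.4, 58.6 and 61.2 CPM (mean 64 ± 18.4), and NF_Calb1 held 45.4 ± 13.8. Neighbours in this order overlapped, and the 3 types were called higher than the mean of the other neuron types, with log2 fold changes of 2.32 (SE 0.17), 2.19 (SE 0.18) and 1.62 (SE 0.16). The lowest neuronal value was that of NP_Nts, 3.24 ± 1.79 CPM, called lower with a log2 fold change of -2.75 (SE 0.28). Th (-1.45, SE 0.24), NP_Mrgpra3 (-1.25, SE 0.28) and PEP1_Slc7a3.Sstr2 (-1.12, SE 0.24) were also called lower, NP_Mrgpra3 not without library 5 (-0.88). NP_Mrgprd stood above the other NP types at 16.7 ± 4.71 CPM. Satellite glia held 1.75 ± 1.60 CPM from 8 UMIs, and endothelial cells 1 UMI.

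Gria3 (GluA3; chromosome X, 41400854 to 41678601, plus strand) divided the neuron types into those that held it and those nearly without it. In NF2_Ntrk2.Necab2 it measured 21.5, 15.2, 14.6, 11.2 and 15.9 CPM in libraries 1 to 5 (mean 15.7 ± 3.72, SD, n = 5). NF_Pvalb (13.6 ± 2.68 CPM), PEP3_Trpm8 (12.4 ± 3.97), NF_Calb1 (12.1 ± 1.89), Th (8.06 ± 2.03) and PEP2_Htr3a.Sema5a (6.09 ± 2.59) followed, and all 6 were called higher than the mean of the other neuron types. In the other 6 neuron types its mean was at most 0.396 CPM. No Gria3 UMI was counted in the 104 NP_Mrgpra3 cells, which allows a share of up to 2.88% of cells with a UMI, nor in the 163 PEP1_Dcn cells, which allows up to 1.84%. These limits cover counting error only. Satellite glia held 20.2, 15.1, 14.6, 15 and 14.4 CPM, a mean of 15.9 ± 2.42, and overlapped with NF2_Ntrk2.Necab2. With 3 UMIs over the 5 libraries set in place of 0, Gria3 was at least 48.7-fold lower in NP_Mrgpra3 and at least 44.9-fold lower in PEP1_Dcn than in satellite glia. Fitted fold changes of Gria3 that involve those types depend on the prior count of the fit and are not read as sizes.

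Gria4 (GluA4; chromosome 9, 4417896 to 4796234, minus strand) was highest in NF_Calb1 with 50.1, 39.6, 44, 26.4 and 30.1 CPM in libraries 1 to 5 (mean 38 ± 9.78, SD, n = 5), in NF_Pvalb with 35.8 ± 10.5 and in PEP2_Htr3a.Sema5a with 32 ± 8.16. These neighbours overlapped and were called higher, with log2 fold changes of 1.56 (SE 0.14), 1.41 (SE 0.17) and 1.33 (SE 0.14). NP_Mrgprd was lowest among neurons, with 1.87, 1.56, 1.20, 0.952 and 0.865 CPM (mean 1.29 ± 0.420), and did not overlap with the next type, Th, at 3.88 ± 1.26 CPM. Both were called lower, with log2 fold changes of -3.63 (SE 0.21) and -1.79 (SE 0.23). The other NP types stood higher, with 16 ± 2.14 CPM in NP_Nts and 13.5 ± 4.36 in NP_Mrgpra3.

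The mix of the 4 AMPA genes therefore differed between types. It was described by the share of each gene among the summed AMPA subunit UMIs of a type and library, which compares types because the capture of each gene's 3′ end is not taken into account. The share of Gria2 was 58.3% ± 5.24 (SD, n = 5) in NF_Pvalb, 54.2% ± 13.5 in PEP3_Trpm8 and 48.7% ± 5.40 in NP_Mrgprd. It was 11.3% ± 2.26 in PEP1_Slc7a3.Sstr2, 13.3% ± 5.88 in NF2_Ntrk2.Necab2 and 15.6% ± 5.86 in NP_Nts. The fewest AMPA UMIs in a library were 18 in NF2_Ntrk2.Necab2 and 13 in NP_Nts. Gria1 made up 70.7% ± 3.12 of AMPA UMIs in PEP1_Slc7a3.Sstr2 and 68.2% ± 7.64 in PEP1_Dcn. The share of Gria4 was highest in the itch-associated types NP_Nts and NP_Mrgpra3, at 82.2% ± 6.17 and 62.1% ± 18.6. In NP_Mrgpra3 it ran from 33.3% to 82.3% over libraries. The share of Gria3 was highest in satellite glia, at 56.5% ± 12.2. The NP types were not alike, as the Gria4 share of NP_Mrgprd was 3.82% ± 1.05, below the mean share of each NF type. Averaged over the types of a class, the NF minus NP difference was 15.6 points ± 2.22 (SD, n = 5) for the share of Gria3 and -15 points ± 9.56 for that of Gria4, each with 1 sign in 5 of 5 libraries. An exact two-sided sign-flip test over the 5 libraries gave p = 0.063 for each, the smallest it can give, and 0.1 after adjustment over the 8 shares compared. The differences of Gria2 (5.64 points ± 12.1) and Gria1 (-6.29 points ± 5.91) did not keep 1 sign in every library (exact p = 0.3125 and 0.125).

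**Figure D2:**
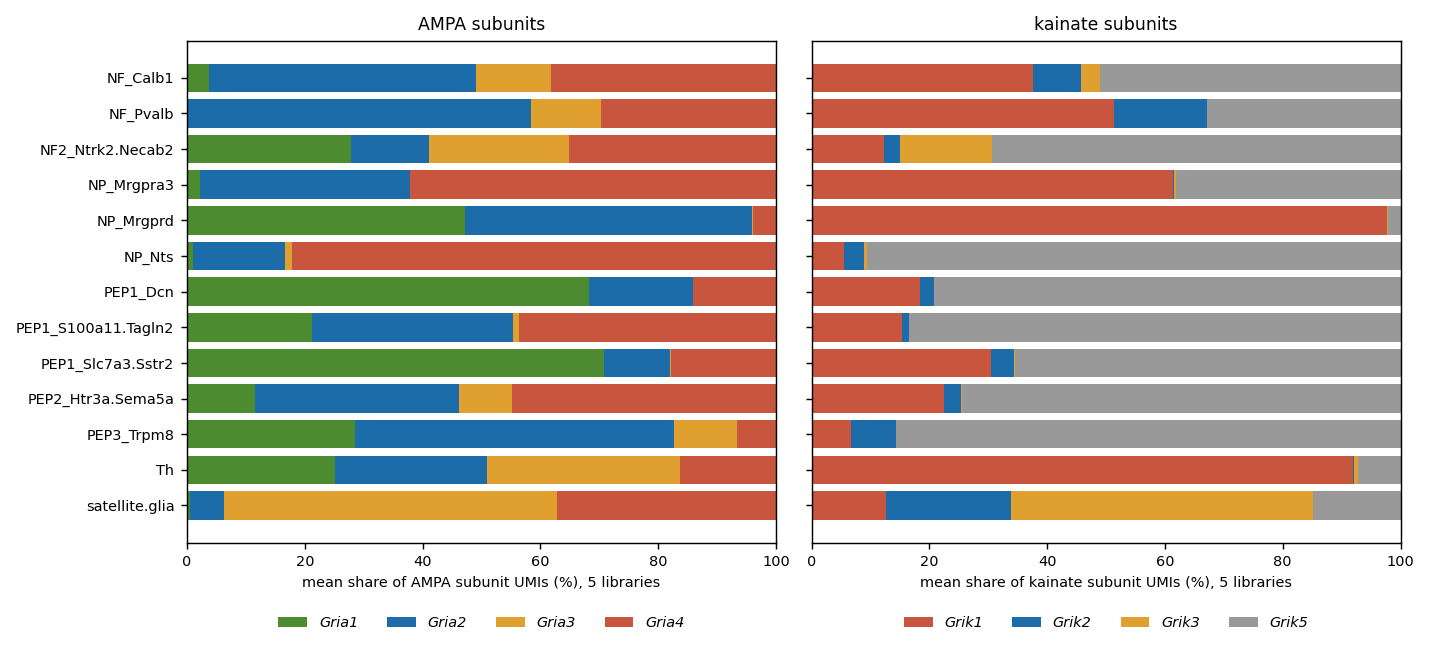
Mean share over 5 libraries of each gene among the AMPA subunit UMIs (left) and among the kainate subunit UMIs (right), in percent, for the 12 neuron types and satellite glia. The kainate bars hold Grik1, Grik2, Grik3 and Grik5, without Grik4. Endothelial cells are not drawn because they held few receptor UMIs. Gria1 takes most of the AMPA bar in PEP1_Dcn and PEP1_Slc7a3.Sstr2 and Gria4 in NP_Nts, and Grik1 takes nearly the whole kainate bar in NP_Mrgprd and Th.

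Grik1 (GluK1; chromosome 16, 87895900 to 88290265, minus strand) was concentrated in NP_Mrgprd and Th. In NP_Mrgprd, the non-peptidergic nociceptors marked by the receptor Mrgprd, it measured 537, 515, 573, 477 and 518 CPM in libraries 1 to 5, a mean of 524 ± 34.8 (SD, n = 5). In Th, the type of C-fibre touch neurons, it measured 210.0, 255, 259, 293 and 264 CPM, a mean of 256 ± 29.7. No library of NP_Mrgprd overlapped with Th, and none of Th with the next type, NF_Pvalb, at 38.9 ± 11.6 CPM. The log2 fold changes against the mean of the other neuron types were 5.70 (SE 0.19) for NP_Mrgprd, 4.41 (SE 0.21) for Th and 1.33 (SE 0.33) for NF_Pvalb. The other NP types did not share the high level: NP_Mrgpra3 held 70.5, 31, 23.4, 24.3 and 22.6 CPM, the first from a sum of 4 cells, and NP_Nts held 1.06 ± 0.783. NP_Mrgpra3 was called higher (1.13, SE 0.34), a call lost in 6 of the alternative settings. NP_Nts (-3.82, SE 0.55), PEP3_Trpm8 (-3.08, SE 0.71), NF2_Ntrk2.Necab2 (-2.85, SE 0.69) and PEP1_Slc7a3.Sstr2 (-1.32, SE 0.43) were called lower, the last of these losing its call in 8 settings and NF2_Ntrk2.Necab2 without library 5 (-2.76).

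Counted by cell, 99% of NP_Mrgprd and 100% of Th cells held a Grik1 UMI. With every cell thinned to 10000 UMIs the shares were 97.3% and 89.8%, followed by 26.9% of NF_Pvalb, 18.5% of NP_Mrgpra3 and 13.7% of NF_Calb1 cells. In endothelial cells, where little of the gene is expected, the share was 10.7% (6 of 56 cells, exact 95% interval 4.03 to 21.9%, counting error only) and 6.73% after thinning, with a median of 16889 UMIs a cell against 105150 in NP_Mrgprd. The thinned shares of satellite glia (5.61%), PEP2_Htr3a.Sema5a (5.56%), PEP1_S100a11.Tagln2 (3.97%), PEP3_Trpm8 (2.43%), NF2_Ntrk2.Necab2 (1.97%) and NP_Nts (1.48%) lay below the endothelial one, and no expression is read from these shares. Those of PEP1_Dcn (7.14%) and PEP1_Slc7a3.Sstr2 (6.77%) were close to it.

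In 3 of the PEP types most Grik1 UMIs came from a few cells. PEP1_Dcn held 0, 37.4, 1.30, 6.26 and 10.4 CPM in libraries 1 to 5, PEP1_S100a11.Tagln2 held 0, 34.8, 2.10, 1.39 and 3.69, and PEP2_Htr3a.Sema5a held 4.86, 25.4, 2.91, 0.920 and 19.1, so that library 2 was highest in each. Cells with at least 100 CPM of Grik1, a limit chosen after the values were seen, numbered 7 of 163 in PEP1_Dcn, 2 of 181 in PEP1_S100a11.Tagln2 and 5 of 206 in PEP2_Htr3a.Sema5a. They carried 76.1%, 69.1% and 71% of the Grik1 UMIs of their type. The mean level of Mrgprd in these cells was 31.9, 191 and 78.5 CPM, against 1.02, 1.18 and 0.623 CPM in the other cells of the same types. In PEP1_Dcn the median of the 7 cells was 0 CPM and the highest 115, so most of them held no Mrgprd UMI, while the medians were 191 and 94.7 CPM in the other two types. The median UMI counts of the cells at or above the limit were 83155, 128295 and 123485, against 49215, 48488 and 73616 in the other cells. In the 10 NF_Pvalb cells with as much Grik1, no Mrgprd UMI was counted. The level of the gene Th, which names the other type high in Grik1, was not taken in the cells at or above the limit. In the sums it measured 96.4 ± 30.0 CPM in PEP1_Dcn, 0.569 ± 1.00 in PEP1_S100a11.Tagln2 and 21.1 ± 10.1 in PEP2_Htr3a.Sema5a (SD, n = 5). The type Th held 747 ± 178 CPM. No doublet caller was run, and the part of cells of mixed content in the PEP values was not tested.

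**Figure D3:**
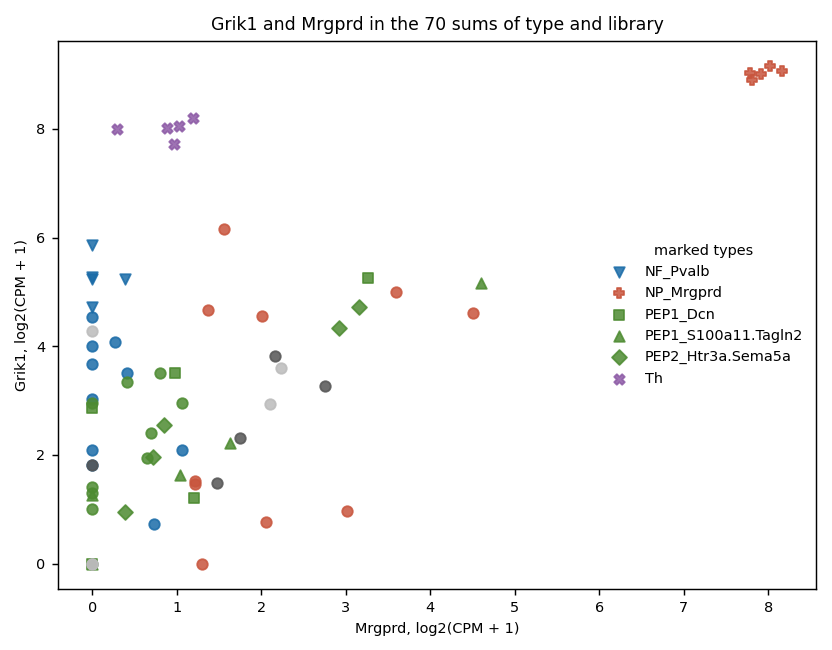
Grik1 (vertical axis) against Mrgprd (horizontal axis), both as log2(CPM + 1), in the 70 sums of type and library. Each point is 1 sum, and 6 types are marked. NP_Mrgprd is high for both genes and Th for Grik1, while the highest Grik1 values of PEP1_Dcn, PEP1_S100a11.Tagln2 and PEP2_Htr3a.Sema5a carry Mrgprd as well.

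Grik2 (GluK2; chromosome 10, 49094833 to 49788766, minus strand) was low in most neurons. NF_Pvalb held 24.9, 7.90, 9.24, 11.8 and 8.22 CPM in libraries 1 to 5, a mean of 12.4 ± 7.16 (SD, n = 5), the first from a sum of 6 cells. It was called higher than the mean of the other neuron types, with a log2 fold change of 3.90 (SE 0.28). NF_Calb1 at 3.28 ± 1.10 CPM (1.83, SE 0.31) and PEP3_Trpm8 at 2.07 ± 2.14 CPM (1.60, SE 0.45, from 14 UMIs) were called too, PEP3_Trpm8 not without library 3 (1.20) or library 4 (1.44). Satellite glia held 10.1, 15.1, 10.4, 9.50 and 5.78 CPM, a mean of 10.2 ± 3.33, and overlapped with NF_Pvalb but not with NF_Calb1. NP_Mrgpra3 and Th gave 1 UMI each.

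Grik3 (GluK3; chromosome 4, 125490700 to 125714173, plus strand) was higher in satellite glia than in any neuron type. Satellite glia held 27.7, 24.9, 15.3, 21.4 and 31.8 CPM, a mean of 24.2 ± 6.29 (SD, n = 5). None of these overlapped with NF2_Ntrk2.Necab2, the highest neuron type, at 7.17, 4.33, 1.62, 2.64 and 5.44 CPM (mean 4.24 ± 2.20). The values of NF2_Ntrk2.Necab2 came from 24 UMIs, those of libraries 1 to 3 from sums of 3, 6 and 5 cells. With only its 2 sums of at least 10 cells the mean was 4.04 CPM. Th followed with 2.29 ± 1.12 and NF_Calb1 with 1.33 ± 1.23 CPM, and these 3 neuron types were called higher than the mean of the others. In each of the other neuron types at most 6 UMIs were counted, and NF_Pvalb, PEP1_Dcn, PEP1_S100a11.Tagln2 and PEP3_Trpm8 gave 0, which allows up to 2.65%, 1.84%, 1.66% and 1.79% of cells with a UMI. Against 3 UMIs over the 5 libraries of a type, Grik3 was at least 55-fold lower in NF_Pvalb and at least 69.8-fold lower in PEP1_S100a11.Tagln2 than in satellite glia. A UMI was found in 32.9% of satellite glia, whose median depth was 17729 UMIs, and in 0 of the 56 endothelial cells, which allows up to 5.36%.

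Grik5 (GluK5; chromosome 7, 25009849 to 25072346, minus strand), the partner subunit that forms no channel alone, was the most even of the 9. Its means among neurons lay between 11.8 ± 1.54 CPM in NP_Mrgprd and 31.3 ± 4.15 in PEP1_S100a11.Tagln2 (SD, n = 5). Every pair of neighbours in its order overlapped, and no single neuron type was called against the mean of the others. NP_Mrgprd, the type with the most Grik1, thus had the lowest mean of Grik5 among neurons.

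Shares were also taken among the summed UMIs of Grik1, Grik2, Grik3 and Grik5, here called kainate UMIs. Grik4 was not counted in them, though its levels given below for NP_Nts and PEP2_Htr3a.Sema5a lie above those of Grik5 there. With Grik4 counted, the shares would be lower wherever it was present, and Grik5 would not hold most of the UMIs in NP_Nts. Grik4 was itself called lower in NF than in NP (log2 fold change -1.06, SE 0.14), so the NF minus NP differences given here hold only without it. Grik1 made up 97.7% ± 0.212 (SD, n = 5) in NP_Mrgprd and 92% ± 2.21 in Th. In NP_Nts it made up 5.53% ± 4.37, below the mean share of each NF type. Grik5 made up 90.6% ± 2.83 in NP_Nts, 85.7% ± 9.97 in PEP3_Trpm8 and 83.6% ± 22.8 in PEP1_S100a11.Tagln2. Satellite glia had 51.4% ± 15.5 Grik3 and 21.2% ± 5.75 Grik2 among their kainate UMIs. The NF minus NP difference was -21.2 points ± 4.60 (SD, n = 5) for the share of Grik1, 7.73 points ± 1.31 for that of Grik2 and 6.00 points ± 2.58 for that of Grik3, each with 1 sign in 5 of 5 libraries (exact sign-flip p = 0.063, 0.1 after adjustment). For Grik5 it was 7.46 points ± 6.98, higher in NF in 4 of 5 libraries (exact p = 0.125).

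Grin1 (GluN1; chromosome 2, 25291181 to 25319187, minus strand) was counted in all neuron types. In NF_Pvalb it measured 121, 112, 78.9, 74.1 and 80.1 CPM in libraries 1 to 5, a mean of 93.1 ± 21.5 (SD, n = 5), and in NF_Calb1 69.5, 104, 63.1, 70.4 and 54 CPM, a mean of 72.3 ± 19.1. Both types overlapped. The 5 PEP types lay between 33.4 ± 3.48 and 45.8 ± 15.4 CPM, and the lowest of them, PEP1_Slc7a3.Sstr2, did not overlap with Th at 21.5 ± 4.43. NF2_Ntrk2.Necab2, at 21.4 ± 6.13 CPM, stood below the other NF types and close to Th. The NP types were lowest, from 14.5 ± 3.10 in NP_Mrgprd to 18.5 ± 1.88 in NP_Mrgpra3. NF_Pvalb (1.56, SE 0.12) and NF_Calb1 (1.16, SE 0.11) were called higher than the mean of the other neuron types on the log2 scale, and NP_Nts (-1.26, SE 0.16) and NP_Mrgprd (-1.11, SE 0.13) lower. Satellite glia held 0, 2.67, 3.47, 3.17 and 0 CPM from 12 UMIs and did not overlap with NP_Mrgprd.

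In NF against NP neurons, 5 of the 9 genes were called higher and 1 lower, where 18.1% of all genes were called higher and 14.5% lower. By edgeR's quasi-likelihood test, Gria2 was higher in NF with a log2 fold change of 2.16 (SE 0.19, adjusted p = 1.03e-16), Gria4 with 2.13 (SE 0.14, adjusted p = 4.28e-22), Grik2 with 2.98 (SE 0.42, adjusted p = 1.83e-09) and Grin1 with 1.61 (SE 0.12, adjusted p = 2.00e-20). Gria3 was the fifth, with a class mean of 13.8 ± 1.83 CPM in NF against 0.112 ± 0.159 in NP (SD, n = 5). Grik1 was lower in NF, with a log2 fold change of -1.43 (SE 0.40, adjusted p = 0.00120) by the same test, class means of 19.1 ± 6.03 and 186 ± 14.4 CPM, and NP_Nts below every NF type. This call was lost without library 5, where the log2 fold change was -1.35. The contrast gives each type equal weight and averages log2 levels, while the class means average CPM. The low level of NP_Nts therefore weighs more in the log2 fold change. With UMIs summed over all cells of a class, an alternative added after seeing the data, Grik1 had a log2 fold change of -4.58 (SE 0.35) and class levels of 18.8 against 396 CPM, and Gria1 was called lower in NF with -1.13 (SE 0.19), whereas with equal weights it was 0.66 (SE 0.68) and not called. Over all genes tested the median log2 fold change was -0.02, and 0.11 without TMM scaling.

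In NF against PEP neurons, 2 genes were called higher and 1 lower, where 11.3% and 12.9% of all genes were. Gria3 (13.8 ± 1.83 against 3.81 ± 1.24 CPM) and Grik2 (log2 fold change 1.63, SE 0.33) were higher in NF. Gria1 was lower, with 7.38 ± 3.48 CPM in NF against 31.7 ± 3.04 in PEP and a log2 fold change of -3.37 (SE 0.21, adjusted p = 7.95e-24) by edgeR's quasi-likelihood test. With UMIs summed over all cells of a class the log2 fold change of Gria1 was -2.26 (SE 0.18). The Grik2 call was lost without library 5 (log2 fold change 1.40). Gria2, Gria4 and Grin1 had log2 fold changes of 0.69 (SE 0.15), 0.90 (SE 0.13) and 0.33 (SE 0.10), under the 2-fold limit.

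In PEP against NP neurons, 5 genes were called higher and 1 lower, where 13.6% and 5.57% of all genes were. Gria1 was higher in PEP with a log2 fold change of 4.03 (SE 0.19), followed by Gria2 with 1.47 (SE 0.17), Grik2 with 1.36 (SE 0.40), Grin1 with 1.28 (SE 0.10) and Gria4 with 1.23 (SE 0.14). Grik1 was lower, with a log2 fold change of -1.97 (SE 0.38, adjusted p = 6.87e-06) by edgeR's quasi-likelihood test. With UMIs summed over all cells of a class, Gria1 had a log2 fold change of 1.13 (SE 0.16), below those of Gria4 with 1.98 (SE 0.18) and Grin1 with 1.32 (SE 0.15), and Grik1 one of -5.55 (SE 0.36). In these sums Gria2 and Grik2 were no longer called (log2 fold changes 0.56 and 0.73), and Grik2 was not called without library 2 or library 3 either (1.17 and 1.20). The 3 contrasts share their groups. Grik3 in NF against NP and NF against PEP, and Gria3 in PEP against NP, could not be fitted: each contrast includes a type with no UMI in any library, and the SE was too large for a reading. Gria3 in both contrasts with NF, Grik3 in PEP against NP, and both genes in satellite glia against neurons also include such types and were fitted, but their fold changes depend on the prior count and are not read as sizes. The class means of Grik3 were 1.86 ± 0.920 CPM in NF, 0.103 ± 0.172 in NP and 0.0246 ± 0.0550 in PEP.

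**Figure D4:**
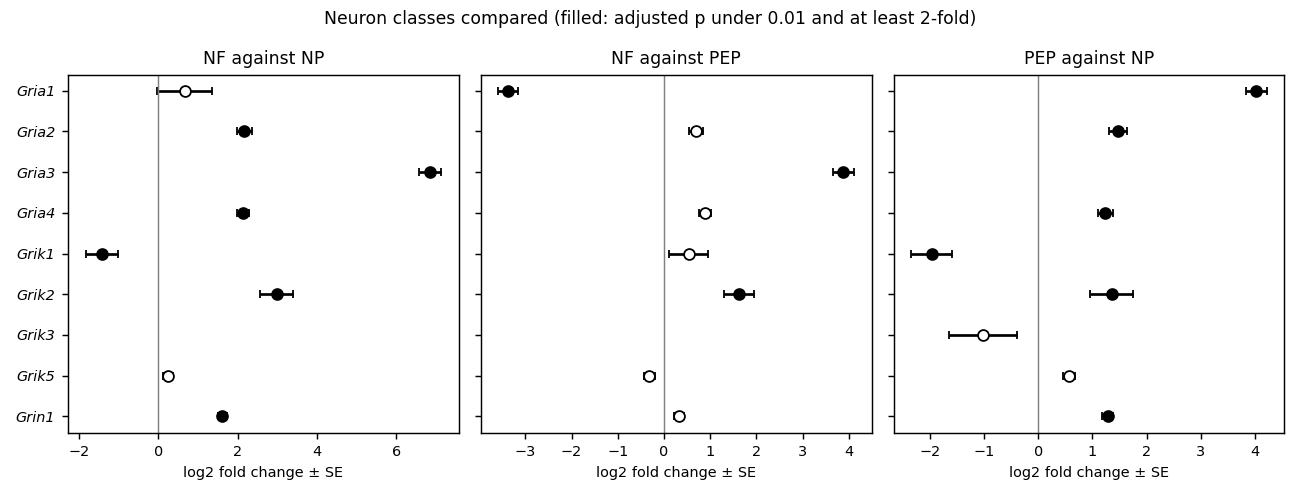
Log2 fold change ± SE of each receptor gene in 3 contrasts of neuron classes, from the fit to 70 sums. Filled points passed the call rule and open points did not, and Grik3 (in both contrasts with NF) and Gria3 (in PEP against NP) are not drawn because the contrast could not be fitted. The points of Gria3 in both contrasts with NF and of Grik3 in PEP against NP depend on the prior count. Grik1 lies below 0 wherever NP is the reference, and Gria1 lies far below 0 in NF against PEP.

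Satellite glia, which wrap the neuronal cell bodies, carried a different set. Against the mean of the 12 neuron types, Grik3, Gria3 and Grik2 were called higher and Gria1, Grin1 and Gria2 lower, 3 of 9 in each direction, where 25.8% of all genes were called higher and 24.9% lower. Grik3 measured 24.2 ± 6.29 CPM in glia against 0.691 ± 0.268 over the neuron types, and Gria3 15.9 ± 2.42 against 5.73 ± 0.508 (SD, n = 5). The log2 fold change was 3.87 (SE 0.31) for Grik2, -3.31 (SE 0.33) for Grin1 and -2.76 (SE 0.50) for Gria2. Gria1 gave 1 UMI in the 249 glia, and its call was lost without library 5 (log2 fold change -3.84). Grik1 was not called, with -0.93 (SE 0.60) on averaged log2 levels, though it measured 6.02 ± 4.81 CPM in glia against 76 ± 3.50 over the neuron types. It was called lower when the UMIs of all neurons were summed (-4.88, SE 0.28, 6.02 against 228 CPM). Gria4 was not called, with 10.9 ± 4.07 CPM in glia, 18.2 ± 3.56 over neurons and a log2 fold change of -0.07 (SE 0.29). Markers of other cells were counted in the same glial sums. The 5 Schwann cell markers summed to 1519.9 CPM (1119 to 2079 over libraries), but they reached 1743 CPM in Th neurons (1483 to 2023). In the other neuron types they lay between 70.5 and 691 CPM, so this list did not set glia apart from neurons. The 4 fibroblast markers summed to 223 CPM (177 to 303), and the 5 macrophage markers to 28.3 CPM with 3 of them at 0. The part of other cells in the glial levels was not tested. Over all genes tested the median log2 fold change was -0.11, and -0.42 without TMM scaling.

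Endothelial cells held 0 to 2 UMIs of each receptor gene except Grik1, with 7. No gene was called higher than in neurons by edgeR's quasi-likelihood test, where 21.4% of all genes were, and Grin1, Grik5, Gria2 and Gria4 were called lower, 4 of 9, where 28.9% were. When the UMIs of all neurons were summed, Gria1 (-3.51, SE 0.85) and Grik1 (-4.65, SE 0.42) were called lower too, 6 in all. The Gria2 call was lost without library 3 or library 4 (log2 fold changes -3.16 and -3.38) and the Gria4 call without library 2 (-2.85). Over all genes tested the median was -0.60, and -0.71 without TMM scaling.

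Some members followed each other over the 12 neuron types. The Pearson correlation of log2(mean CPM + 1) was 0.81 between Gria2 and Grin1, 0.80 between Grik2 and Grin1 and 0.79 between Gria2 and Grik2, and it was -0.58 between Gria4 and Grik1, the lowest of all pairs. These values describe 12 points that share their 5 libraries, and all 3 genes of the first pairs were highest in NF_Pvalb. Because Gria2, Grin1 and Grik2 moved together, the 300 bases around their starts (RefSeq promoter table, build GRCm38.p6, 5′ to 3′ on the gene's strand) are shown, with each CG pair in capitals. Promoters of 6 of the 9 genes matched in that table.
Gria2, chr3:80802786-80803085, minus strand: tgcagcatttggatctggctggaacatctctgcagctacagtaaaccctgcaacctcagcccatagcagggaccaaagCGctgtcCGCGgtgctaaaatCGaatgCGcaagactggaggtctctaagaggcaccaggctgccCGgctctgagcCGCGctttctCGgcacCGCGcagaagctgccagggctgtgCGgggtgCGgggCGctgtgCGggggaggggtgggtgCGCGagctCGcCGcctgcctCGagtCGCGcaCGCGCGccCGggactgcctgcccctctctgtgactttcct
Grin1, chr2:25319138-25319437, minus strand: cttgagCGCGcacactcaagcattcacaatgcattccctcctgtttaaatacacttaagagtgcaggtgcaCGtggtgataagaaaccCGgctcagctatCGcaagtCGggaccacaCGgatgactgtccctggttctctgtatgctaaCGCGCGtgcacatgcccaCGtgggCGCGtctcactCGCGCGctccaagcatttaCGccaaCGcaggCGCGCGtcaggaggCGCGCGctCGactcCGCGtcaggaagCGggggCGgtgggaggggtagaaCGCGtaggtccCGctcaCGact
Grik2, chr10:49788705-49789004, minus strand: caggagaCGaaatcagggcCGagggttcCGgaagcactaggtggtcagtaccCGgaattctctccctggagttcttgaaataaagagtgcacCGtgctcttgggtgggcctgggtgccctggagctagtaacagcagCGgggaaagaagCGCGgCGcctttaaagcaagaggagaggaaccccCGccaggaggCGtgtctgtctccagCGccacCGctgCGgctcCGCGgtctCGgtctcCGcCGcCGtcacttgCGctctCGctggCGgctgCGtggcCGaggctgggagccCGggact
They held 26, 33 and 26 CG pairs, where the median over the 32851 windows of the table was 7, and their GC content was 65.7%, 60.7% and 64.7% against a median of 52.7%. The E-box letters CANNTG, which read the same on both strands, occurred 4 times in the window of Grin1 and 1 time each in those of Gria2 and Grik2, and 72.3% of all windows hold them. The GC box letters GGGCGG, searched on both strands, occurred 1 time in Grin1 and in neither of the other two, and 35.7% of windows hold them. The TATA box letters TATAAA were in none of the 3, and 13.6% of windows hold them. These matches describe the letters of the windows and are not read as sites.

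For each member, the 2 genes outside the list with the most similar pattern over the 12 neuron types were taken by the same correlation, given in brackets. For Gria3 these were Scn1a (0.96) and Gm4980 (0.96), of which Scn1a encodes a voltage-gated sodium channel. For Grik1 they were Ccdc68 (0.88) and Ms4a3 (0.86), both highest in NP_Mrgprd. They were Ywhaq (0.85) and Lmbrd2 (0.85) for Gria1, Pex13 (0.95) and Ppp1r9a (0.91) for Gria2, E2f6 (0.93) and Dlc1 (0.93) for Gria4 and Slc45a1 (0.95) and Celsr2 (0.94) for Grin1. They were Spry1 (0.96) and Ephb1 (0.95) for Grik2, Samd5 (0.96) and Nxpe2 (0.96) for Grik3 and Cuedc1 (0.88) and Arhgap29 (0.88) for Grik5. With 12 points and 11886 genes to choose from, high values are to be found for many genes.

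The other genes of the pathway were counted by list. Of 8 other receptor subunit genes listed, 6 were present and 3 were tested, with 2 higher and 1 lower in NF than in NP, where 18.1% and 14.5% of all genes were. Grik4, the other high-affinity kainate subunit, was highest in NP_Nts (39.8 CPM) and PEP2_Htr3a.Sema5a (31.7 CPM) and was lower in satellite glia than in neurons (log2 fold change -4.77, SE 0.53). Grin3a, an NMDA subunit that lowers calcium flow, was highest in PEP1_Dcn (75.7 CPM) and PEP1_Slc7a3.Sstr2 (59.9 CPM), the types with the most Gria1, and was higher in PEP than in NP (log2 fold change 3.32, SE 0.16). Grid1, an orphan member of the family, measured 12.8 CPM in satellite glia and at most 7.34 CPM in a neuron type.

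Auxiliary subunits set the gating and traffic of these receptors. Of 14 AMPA auxiliary genes listed, 8 were tested, of which 5 were lower and 1 higher in NF than in PEP (all genes: 12.9% and 11.3%), and 6 were higher and 1 lower in PEP than in NP (all genes: 13.6% and 5.57%). Cacng3, a transmembrane AMPA receptor regulatory protein, was lower in NF than in PEP (log2 fold change -4.38, SE 0.41), with 17.9 CPM in NP_Nts and 16.7 CPM in PEP1_Dcn. Cnih3, a cornichon protein that slows the closing of AMPA receptors, reached 25.2 CPM in PEP2_Htr3a.Sema5a and 12 CPM in PEP1_Dcn and was at most 0.528 CPM in the NF types. Shisa7 measured 8.08 CPM in satellite glia and at most 4.87 CPM in a neuron type. Of the 2 kainate auxiliary genes, Neto1 was higher in NF than in NP (log2 fold change 3.84, SE 1.07), with 9.63 CPM in NF_Pvalb and 5.83 CPM in Th. Neto2 was lower in NF (log2 fold change -1.92, SE 0.18), with 65.2 CPM in NP_Nts and 10.4 CPM in NP_Mrgprd.

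Of 18 scaffold and trafficking genes, 13 were tested, with 5 higher and 3 lower in NF than in NP, where 18.1% and 14.5% of all genes were. Dlg2, which anchors receptors at the membrane, measured 74.6 CPM in NF_Calb1 and 67.7 in NF_Pvalb but at most 0.939 in the NP types. Camk2a, a kinase that phosphorylates Gria1, was lower in NF than in NP (log2 fold change -4.95, SE 0.14). Grip1, which binds Gria2 and Gria3, was lower in satellite glia than in neurons (-4.17, SE 0.39). Of 8 metabotropic receptor genes, which signal through G proteins, 4 were tested, with 1 higher in NF than in NP and 4 higher in PEP than in NP, where 18.1% and 13.6% of all genes were. Grm4 measured 46.9 CPM in NF2_Ntrk2.Necab2 and at most 0.211 CPM in the NP types, Grm3 measured 26.8 CPM in PEP3_Trpm8, and Grm7 was lower in satellite glia than in neurons (log2 fold change -4.37, SE 0.39). All 10 genes for glutamate supply and clearance were tested, with 5 higher and 0 lower in NF than in NP, where 18.1% and 14.5% of all genes were. Slc17a7, the vesicular glutamate transporter VGLUT1, measured 489 CPM in NF_Pvalb and at most 0.880 CPM in the NP types. Slc1a3 and Slc1a2, the glial uptake carriers, measured 78.1 and 20.2 CPM in satellite glia and at most 1.97 and 1.32 CPM in a neuron type.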

How the data were processed

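Per the labels and the study's methods, cells of dissociated lumbar dorsal root ganglia were captured in droplets and sequenced from the 3′ end. The submitters' processing notes name Cell Ranger, Seurat and the build mm10. The deposited matrix holds the authors' raw UMI counts per gene and cell, and a deposited annotation gives each cell's type. Both were used as deposited. Of 224553362 UMIs, 143 fell on 4 rows that name no mouse gene and were left out.

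UMI counts were summed per type and library and scaled to 1000000 UMIs per sum (CPM). The libraries are the identifiers in the cell names. The 70 sums were fitted with edgeR 4.0.16 (R 4.3.3; filterByExpr, TMM, a mean per type, glmQLFit and glmQLFTest), and DESeq2 1.42.0 was an alternative. The other alternatives were no TMM factors, no filter on low counts, a library block, only the 12 neuron types in the fit, levels as means over cells, only sums of at least 10 cells, leaving out 188 cells over 10% mitochondrial UMIs, an adjusted p under 0.05, leaving out each library, and sums over all cells of a class. No doublets were removed here. Thinning drew 10000 UMIs from each cell without replacement. Limits of a count of 0 use 3 counts and cover counting error only. Python 3.11.15 with numpy 2.4.6, scipy 1.17.1, pandas 2.3.3 and matplotlib 3.10.9 was used for the rest. The fit was tested on simulated data.

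The members and gene lists were chosen with earlier results of these data known. The genes named beside the members were the 2 most correlated with each, and up to 3 of each list with the largest called fold change in a class contrast. Deviations from the type mean were correlated between sums of different types, each of at least 10 cells. Within 1 library the median correlation was 0.118 (lowest -0.00366, highest 0.451, n = 353 pairs), against -0.0272 between libraries. Each library was taken as 1 mouse.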

Additional observations from a re-analysis of the deposited data

Results flagged for a closer look

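Of 92 groups of 5 libraries with at least 10 UMIs of a receptor gene in a type, 7 held a library whose gap to the nearest other, divided by the range, was above 0.71. Chance flags about 1 in 20 groups. For Grik1, the highest were library 1 in NP_Mrgpra3 (70.5 CPM), library 2 in PEP1_Dcn (37.4 CPM) and library 2 in PEP1_S100a11.Tagln2 (34.8 CPM). For Gria3, library 1 was highest in Th (11.6 CPM) and in satellite glia (20.2 CPM). Grik2 was highest in library 1 of NF_Pvalb (24.9 CPM), and Gria4 was lowest in library 1 of PEP3_Trpm8 (0 CPM). Library 1 held 4 NP_Mrgpra3, 15 Th, 19 satellite glial, 6 NF_Pvalb and 9 PEP3_Trpm8 cells, and its part in these values was not tested.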

How the results depend on the processing

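No result changed direction under an alternative where it had been called. Of the counts of called receptor genes, that of NF against PEP, higher, was 2 and became 4 with DESeq2 and 4 with UMIs summed over all cells of a class, and ranged from 1 to 3 when a library was left out, 1 without library 5. That of NF against NP, lower, was 1, became 2 with class sums and ranged from 0 to 1, 0 without library 5. Pairs of gene and neuron type called lower numbered 17, and 10 to 17 when a library was left out, 10 without library 5. With only sums of at least 10 cells, the NF minus NP difference in share was 12.6 points for Gria3 and -14.8 points for Grik1, against 15.6 and -21.2 with all sums. With only the 12 neuron types in the fit, 8 of the 9 genes were called as differing among them. The cause of these changes was not tested. Sums over a class were added after seeing the data.

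With the library as a replicate block, the calls were the same: 6, 3 and 6 receptor genes in the 3 class contrasts, 6 in satellite glia and 4 in endothelial cells, with 0 lost and 0 gained, and 29 and 17 pairs of gene and type. Of the 70 sums, 9 held fewer than 10 cells, which limits the precision of their levels.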
